A study of Mus musculus with 13 samples.

Results

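Gene expression was compared between iNKT1 cells from the thymus of BALB/c mice at 25 weeks and at 6 weeks of age. The comparison used 4 of the 13 RNA-seq libraries of the series: N0802 and N0805 at 6 weeks (called young) and N0808 and N0811 at 25 weeks (called aged). Genes were included if their normalized count was 10 or more in at least 2 of these 4 libraries, which kept 10503 of the 24421 genes in the table. All mice were wild type BALB/c females that received no treatment, and each library came from a pool of 3 mice at 6 weeks or 7 mice at 25 weeks. iNKT1 cells were sorted live as B220-, CD3+, CD1d tetramer+ and CD122+ cells, so the CD122 gene Il2rb belongs to the gate. The labels give 103000 and 105000 sorted cells for the young libraries and 468000 and 500000 for the aged ones. The other libraries held iNKT2 (CD122- CD4+) and iNKT17 (CD122- CD4-) cells of the same ages, 2 libraries for each subset and age. By the study's account the aged CD122- CD4+ gate is a mixed pool that also holds other iNKT cells, iNKT17 cells among them, and its libraries are called iNKT2 here by their label. A DNase-treated repeat of 1 aged iNKT17 sample was not used.

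Invariant natural killer T (iNKT) cells are T cells with a nearly invariant antigen receptor that recognizes lipids held by CD1d. They arise in the thymus from CD4+ CD8+ (double-positive) thymocytes, are selected by other double-positive cells, divide, and then mature into subsets. iNKT1 cells are driven by the transcription factor T-bet (Tbx21), depend on IL15 through CD122, carry receptors of NK cells and cytotoxic granules, and make interferon gamma. Many of them stay in the thymus for long periods. Dividing cells make most of their histones while DNA is copied, and the mRNAs of these replication-dependent histones end in a stem-loop in place of a poly(A) tail. The library kit primed total RNA at random and can therefore capture them.

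The 4 libraries held 3590903 to 9067693 reads in genes, with N0805 the shallowest, and 1 read was worth 0.748 to 1.85 normalized counts. The aged pair agreed more closely than the young pair: 93.6% of the genes lay within 2-fold between N0808 and N0811, and 77.1% between N0802 and N0805. N0805 also carried transcripts of other cells. Krt8, a keratin of epithelial cells, was at 3.23, 424, 0 and 0 in N0802, N0805, N0808 and N0811, and Krt19 at 0, 398, 0 and 0. The Y-linked gene Eif2s3y was at 0, 96.2, 0 and 0, although the mice were female. In 35 genes the N0805 value was at least 4 times that of every other iNKT1 library, against 23 such genes for N0802, and 4 of the 35 were called (Ccr7, Pak1, Epcam and Tubb3). Each call was therefore repeated without N0805. A call is said to hold if it was made again in the same direction without N0805 and if both aged values lay beyond that of N0802. Without N0805 the young group is 1 library, and its spread is assumed to equal that of the other groups.

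The iNKT1 label fitted the markers in every library. The lineage-defining Tbx21 was at 1579 and 1560.0 at 6 weeks and 2168 and 1920.5 at 25 weeks, Il2rb at 11277 and 7559 at 6 weeks and 9387 and 9709 at 25 weeks, and the chemokine receptor gene Cxcr3 at 1032 and 984 at 6 weeks and 1401 and 1233 at 25 weeks. Of the genes that define the other subsets, some were low or absent and others were expressed. The iNKT17 gene Il23r was at 0 in all 4 libraries, Blk was at most 6.45, and the iNKT2 cytokine gene Il4 was at 9.68, 44.4, 5.98 and 6.44. The iNKT2 marker gene Izumo1r was at 423 and 481 at 6 weeks and 214 and 196 at 25 weeks. Zbtb16, another iNKT2 marker gene, was also expressed, with values given below.

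With age, 242 genes rose (2.3% of the 10503) and 349 fell (3.32%) at an adjusted p below 0.05 (limma on log2(normalized count + 1), Benjamini-Hochberg adjustment). These shares are the background for the calls of every gene list below. In all 591 the values of the age groups did not overlap, as was also so for 2916 genes that were higher and 2703 that were lower whether called or not. Without N0805 there were 63 rises and 227 falls. Without N0802, with N0805 alone as the young group, there were 2117 rises and 1375 falls. Without N0808 there were 5 rises and 143 falls, without N0811 2 and 116, and leaving out any 1 library of another subset gave 71 to 498 rises and 226 to 416 falls. The calls that held were mostly falls: 190 genes fell and held (1.81%), against 30 that rose and held (0.286%). The falls that held had a median log2 fold change of -2.96 and the rises one of 1.74, while the median over all genes was 0.01. Of the 190 falls, 81 belonged to lists of histone and cell cycle genes and 10 to the list of double-positive thymocyte genes, and 99 were in neither. Because these are bulk libraries, fewer cells of a kind cannot be told apart from less RNA per cell in any of these results.

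**Figure D1:**
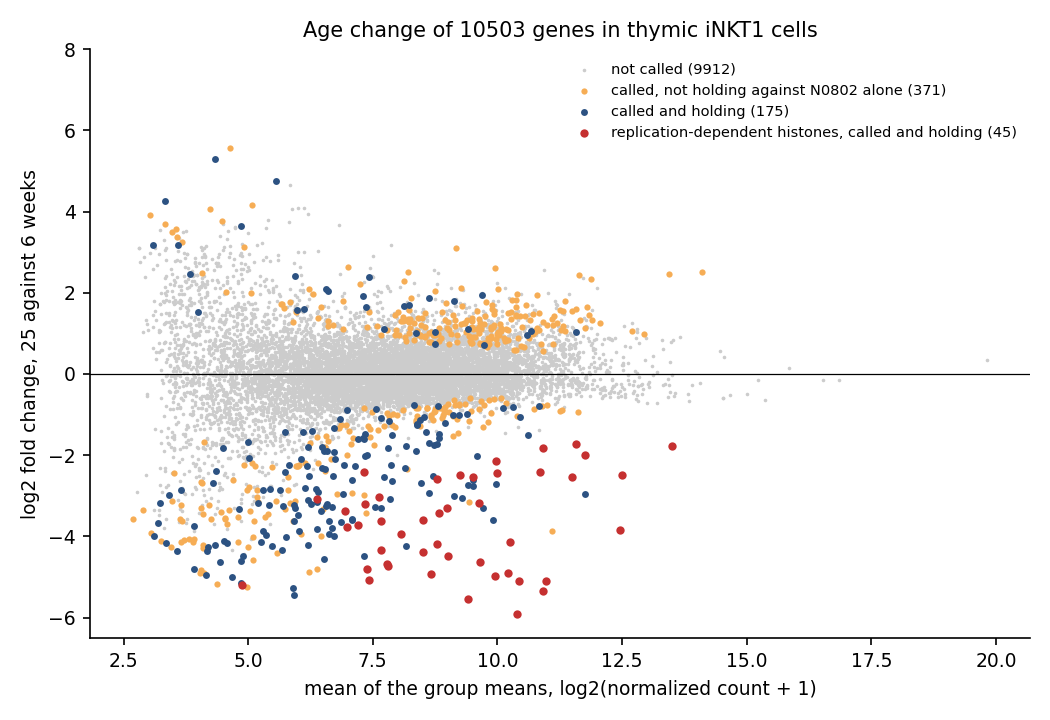
Age change of the 10503 genes in iNKT1 cells. The x axis is the mean of the age group means on the log2(normalized count + 1) scale, the y axis the log2 fold change at 25 against 6 weeks, and each point is 1 gene. The replication-dependent histone genes that fell and held (red, 45 genes) lie in the lower part of the plot, and orange points are calls that did not hold against N0802 alone, most of the rises among them.

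Replication-dependent histone genes, a group the study also singled out in these libraries, had the lowest median of all lists. Of 68 such genes in the table, 55 were expressed, and 51 of the 55 fell, against 3.32% of all genes. None rose. The median log2 fold change of the 55 was -3.61, and -3.53 without N0805. The fall held in 45 genes. Summed over the 68 genes, the level was 87856 in N0802 and 120069 in N0805, and 16091 and 16033 in the aged libraries. N0805 was the highest of all 4 libraries, yet N0802 alone stood well above both aged libraries. Markers of myeloid and dendritic cells moved the same way from low levels (median log2 fold change -3.08 over 8 genes, 2 of them called), and their part in the fall was not tested.

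Among the single histone genes, Hist1h2bm (chr13:21722044-21722478, mm10), which codes for an H2B core histone, had the largest fitted change on the log2(normalized count + 1) scale. Its normalized counts were 1337 and 3975 at 6 weeks and 29.2 and 47.6 at 25 weeks, a 69.2-fold fall (log2 fold change -5.91, SE 0.53, adjusted p = 7.57e-05). The H2A gene Hist1h2an (chr13:21786772-21787218) was at 918 and 1765 at 6 weeks and 28.4 and 24.5 at 25 weeks and fell 50.7-fold (log2 fold change -5.54, SE 0.37, adjusted p = 2.08e-05). The linker histone gene Hist1h1b (chr13:21779832-21780554) was at 3353 and 4234 at 6 weeks and 86.01 and 97.8 at 25 weeks and fell 41.3-fold (log2 fold change -5.34, SE 0.39, adjusted p = 2.08e-05). In each of these genes the lowest young value was over 10 times the highest aged one. Hist1h1a, Hist1h2bn, Hist1h3b and Hist1h2bk fell by 32.1 to 34.8-fold. The H3 gene Hist1h3g was at 239.9 and 422 at 6 weeks and 13.5 and 5.15 at 25 weeks and the low H2B gene Hist1h2bp at 72.1 and 40.7 at 6 weeks and 0 and 1.29 at 25 weeks, where the ratio of group means was larger still (87.6) but rests on 0 and 1 reads at 25 weeks.

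Every histone class fell. All 5 H1 genes and all 10 H3 genes fell, as did 14 of 15 H2B, 11 of 13 H2A and 11 of 12 H4 genes. The 4 genes that were not called (Hist2h2ab, Hist1h2ad, Hist2h2be and Hist1h4n) were also lower at 25 weeks. The class medians ran from -2.47 for H4 to -4.20 for H2B on the log2 scale. The change was not uniform in size. Hist1h1c, a linker histone gene with a high level, went from 18050.3 to 5307 (log2 fold change -1.76, SE 0.28, adjusted p = 0.00584), and Hist1h4d from 5557 to 1347 (log2 fold change -2.00, SE 0.25, adjusted p = 0.000974). Most of these genes (46 of 55) lie on chromosome 13. Reads with a mapping quality under 10 were not counted, so counts of near-identical histone copies are uncertain for the single gene.

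**Figure D2:**
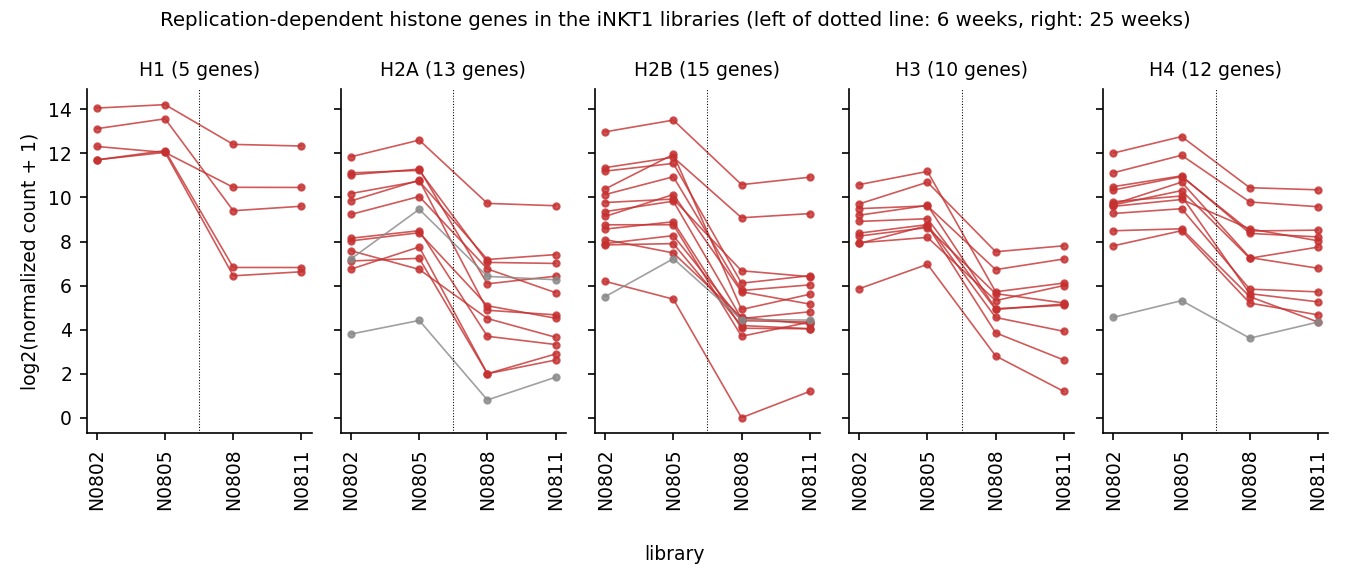
Normalized counts of the 55 expressed replication-dependent histone genes in the 4 iNKT1 libraries, 1 line per gene and 1 panel per histone class, on a log2(normalized count + 1) axis. Red lines are genes that fell at an adjusted p below 0.05 and grey lines the 4 others; every line drops between the young libraries (N0802, N0805) and the aged ones (N0808, N0811).

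Variant histone genes, listed apart from the replication-dependent ones, changed less as a list: 5 of 10 fell, not all of which held, with a median of -0.83. H2afx, which codes for the H2A variant that is phosphorylated at DNA breaks, fell the most among those that held (1818 and 1656 at 6 weeks and 284 and 242 at 25 weeks, log2 fold change -2.72, SE 0.20, adjusted p = 2.08e-05). Cenpa, the H3 variant of the centromere, fell 3.57-fold (156 and 120.3 at 6 weeks and 42.6 and 34.8 at 25 weeks). H2afz and H3f3b fell by 2.29-fold and 1.87-fold, and neither held (adjusted p = 0.0751 and 0.128 without N0805).

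The promoters of the genes that fell together are shown because histone and mitotic genes are known to use different short elements. The letters were searched on both strands in windows of 300 bases (250 before to 50 after the start; RefSeq, GRCm38.p6), in which 8435 of the 10503 genes were found. CCAAT, the binding motif of NF-Y, was in 40 of the 47 matched histone windows of genes that fell (85.1%), against 37.4% of all 32851 promoters and 39.1% of the 8435 genes. TATAAA was in 28 of the 47 (59.6%, against 13.6% and 6.75%). ATTTGCAT, the octamer known from H2B promoters, was in 5 of 13 H2B windows (38.5%, against 1.74% and 1.41%). AAACACA, known from H1 promoters, was in 4 of 5 H1 windows, against 7.18% and 4.23%. The mitotic genes that fell had CCAAT in 20 of 27 windows (74.1%) and TATAAA in none. TTTGAA, the cell cycle homology region at which DREAM and MuvB complexes bind, was in 19 of these 27 (70.4%), against 17.9% of all promoters and 11.95% of the 8435 genes. It was also in 22 of the 47 histone windows. Of the matched genes that rose and held, 4 of 17 had CCAAT (23.5%) and 3 had TTTGAA. The E2F letters TTTGGCGC or TTTCCCGC were in 1 histone window (2.13%) and 2 mitotic ones (7.41%), against 1.56% of all promoters and 3.51% of the 8435 genes. No motif is part of another, and a match is a description of the window, not a bound site. Nearly all tested histone genes fell (51 of 55), and windows of listed genes that were not called were not counted separately. The shares therefore describe these gene families and cannot tie a motif to the fall.

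Given here are the 250 bases before the start of 3 histone genes with large falls and of 2 mitotic genes, with every match to the letters above in capitals (a match on the other strand reads as its reverse complement, such as ATTGG for CCAAT). The windows are chr13:21721794-21722043, plus strand for Hist1h2bm, chr13:21787249-21787498, minus strand for Hist1h2an, chr13:21780626-21780875, minus strand for Hist1h1b, chr2:127831860-127832109, minus strand for Bub1 and chr10:69352913-69353162, minus strand for Cdk1, which was chosen for its matches after its values were seen. The start used by RefSeq and that in the deposited table lie 0, 30, 71, 114 and 0 bases apart in this order.
Hist1h2bm: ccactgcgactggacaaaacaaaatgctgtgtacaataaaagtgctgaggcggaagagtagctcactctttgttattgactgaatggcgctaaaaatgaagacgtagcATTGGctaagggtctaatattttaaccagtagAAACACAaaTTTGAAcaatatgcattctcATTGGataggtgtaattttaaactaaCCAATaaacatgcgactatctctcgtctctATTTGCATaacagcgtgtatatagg
Hist1h2an: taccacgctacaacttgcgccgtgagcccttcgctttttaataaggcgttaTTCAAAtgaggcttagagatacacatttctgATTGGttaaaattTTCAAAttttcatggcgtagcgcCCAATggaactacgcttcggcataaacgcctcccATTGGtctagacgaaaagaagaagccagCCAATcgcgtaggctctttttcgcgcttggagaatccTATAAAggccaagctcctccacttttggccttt
Hist1h1b: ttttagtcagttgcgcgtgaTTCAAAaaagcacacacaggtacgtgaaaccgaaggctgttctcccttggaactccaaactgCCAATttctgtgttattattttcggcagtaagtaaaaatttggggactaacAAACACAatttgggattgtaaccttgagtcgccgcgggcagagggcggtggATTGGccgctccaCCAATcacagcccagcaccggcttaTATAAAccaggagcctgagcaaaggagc
Bub1: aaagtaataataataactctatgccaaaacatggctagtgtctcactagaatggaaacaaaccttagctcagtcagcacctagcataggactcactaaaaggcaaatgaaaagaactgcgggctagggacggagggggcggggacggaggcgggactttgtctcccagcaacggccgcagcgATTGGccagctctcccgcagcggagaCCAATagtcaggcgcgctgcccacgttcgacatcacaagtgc
Cdk1: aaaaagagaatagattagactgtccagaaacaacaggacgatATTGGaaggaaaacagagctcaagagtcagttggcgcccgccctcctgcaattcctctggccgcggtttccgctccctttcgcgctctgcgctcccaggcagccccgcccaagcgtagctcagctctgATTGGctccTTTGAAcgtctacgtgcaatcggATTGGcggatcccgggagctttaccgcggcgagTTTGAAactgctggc

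In Hist1h2bm the octamer begins 25 bases before the start and CCAAT lies 55, 81 and 142 bases before it. Hist1h2an and Hist1h1b carry TATAAA 33 and 28 bases before the start. Cdk1 holds TTTGAA 15 and 71 bases before the start, beside CCAAT at 48, 80 and 208.

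Genes of mitosis and cytokinesis also fell more often than all genes, of which 3.32% fell and 2.3% rose. Of 78 tested, 35 fell and none rose, 28 of the falls held, and the median log2 fold change was -2.24 (-2.78 without N0805). Pbk, a kinase of mitotic cells, was at 108 and 128 at 6 weeks and 2.24 and 1.29 at 25 weeks (log2 fold change -5.44, SE 0.71, adjusted p = 0.00122). The spindle checkpoint kinase gene Bub1 was at 166 and 66.6 at 6 weeks and 2.24 and 1.29 at 25 weeks (log2 fold change -5.28, SE 0.98, adjusted p = 0.0128). In both genes the aged libraries held no more than 3 reads each, so the size of the fall depends on the 1 added before the logarithm. Nusap1, a spindle protein gene, fell 21.7-fold (398 and 213 at 6 weeks and 21.7 and 6.44 at 25 weeks, log2 fold change -4.49, SE 0.54, adjusted p = 0.000732), and Ccna2 (cyclin A2) 19.3-fold (529 and 557 at 6 weeks and 29.2 and 27.03 at 25 weeks, log2 fold change -4.23, SE 0.53, adjusted p = 0.00100). The main mitotic kinase gene Cdk1 was at 173 and 254 at 6 weeks and 11.97 and 20.6 at 25 weeks (log2 fold change -3.65, adjusted p = 0.00457). Stmn1, which codes for the microtubule-destabilizing protein stathmin, fell 7.61-fold (789 and 599.6 at 6 weeks and 108 and 74.7 at 25 weeks, log2 fold change -2.92, SE 0.25, adjusted p = 5.13e-05). The groups did not overlap in any of the genes named here. Mki67, the gene of the proliferation marker Ki-67, was at 249.6 and 146 at 6 weeks and 65.8 and 87.5 at 25 weeks and missed the threshold (adjusted p = 0.0528). Fewer of these genes were called with array weights, which weight libraries by their scatter (12 of 78), and more with DESeq2 (56). Both libraries of a group received the same weight (0.311 for N0802 and for N0805). The weights therefore lowered the young iNKT1 group and did not set N0805 apart. Without N0808 11 of the 78 fell, and without N0811 13.

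By contrast, most genes of the replication fork were not called. Of 47, 4 fell and 1 rose, and no call held. The median of -0.49 lay nearer 0 than that of the mitotic genes. Cdc6, which loads the MCM helicase, fell 4.35-fold (130.2 and 74.02 at 6 weeks and 36.6 and 10.3 at 25 weeks), Gmnn, the inhibitor of that loading, was at 154 and 168 at 6 weeks and 56.1 and 24.5 at 25 weeks, and the helicase partner Cdc45 fell 3.34-fold. Rfc1, of the clamp loader, rose 1.93-fold (247 and 228 at 6 weeks and 455 and 463 at 25 weeks). Without N0805 their adjusted p-values were 0.0502, 0.0734, 0.151 and 0.137. The helicase genes Mcm2 to Mcm7 had log2 fold changes between -0.56 and 0.09, none of them called.

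Among 19 genes of nucleotide supply and chromatin copying, 6 fell and 3 held. Rrm2, the inducible subunit of ribonucleotide reductase, fell 10.4-fold (485 and 254 at 6 weeks and 26.2 and 45.1 at 25 weeks, log2 fold change -3.31, SE 0.52, adjusted p = 0.00491). Dut, which removes dUTP, fell 2.98-fold (log2 fold change -1.57, SE 0.29, adjusted p = 0.0139) and held. Tk1 (thymidine kinase; 39.8 and 75.9 at 6 weeks and 7.48 and 0 at 25 weeks) and the histone chaperone gene Asf1b (143 and 144 at 6 weeks and 41.9 and 39.9 at 25 weeks) fell but did not hold. Of 36 cyclin and E2F genes, 5 fell and 3 held. Ccne2 (cyclin E2) fell 24.6-fold (79.6 and 113 at 6 weeks and 5.24 and 2.57 at 25 weeks, log2 fold change -4.34, SE 0.57, adjusted p = 0.00126). The E2F activator gene E2f2 fell 5.44-fold (579.8 and 209 at 6 weeks and 70.3 and 74.7 at 25 weeks, log2 fold change -2.25, SE 0.51, adjusted p = 0.0323). Mycn, a MYC family member, had 11.8, 31.5, 0 and 0, with no read in either aged library (adjusted p = 0.00457). Cdkn3, also in this list, fell without holding.

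**Figure D3:**
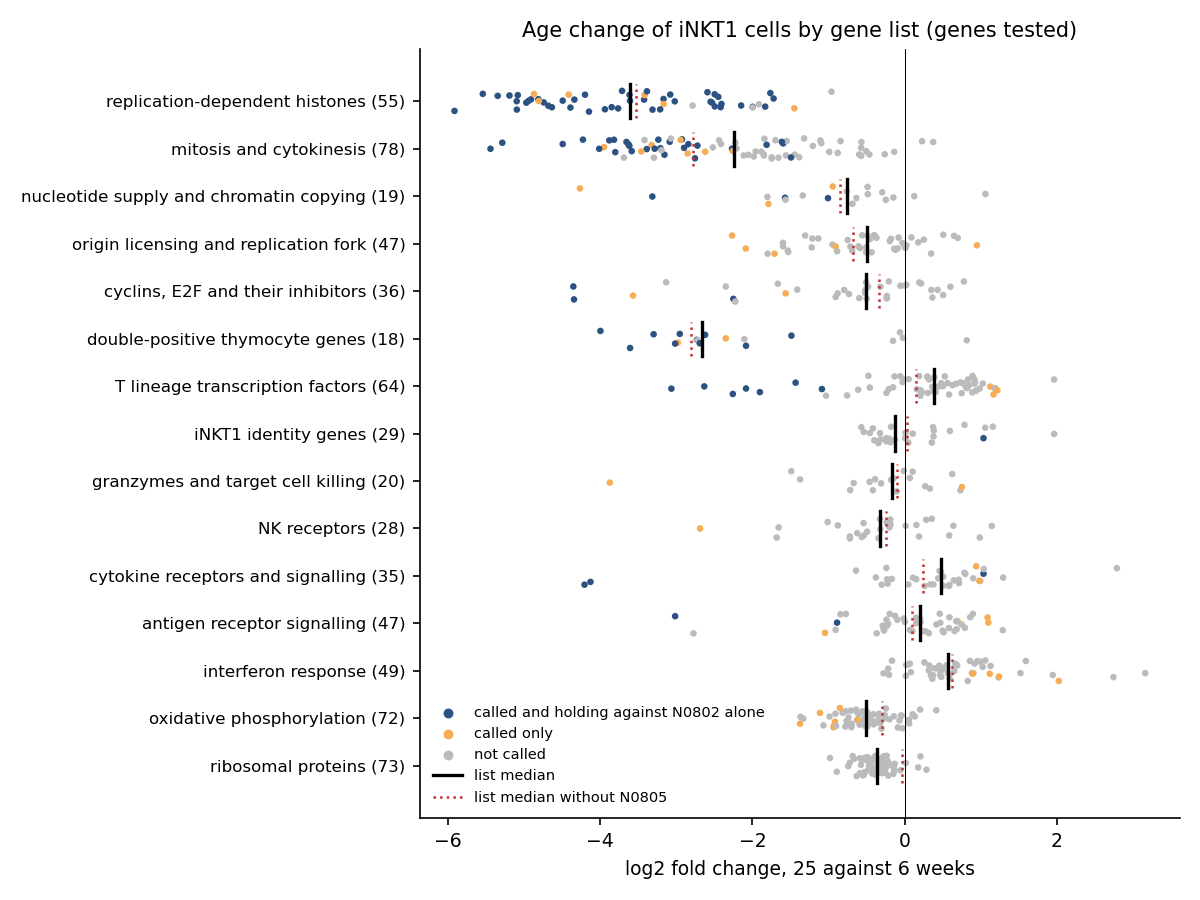
Log2 fold change of every tested gene in 15 gene lists, 25 against 6 weeks, with the number of genes tested after each list name. Blue points are calls that held against N0802 alone, orange points other calls and grey points genes not called; black bars are list medians and dotted red bars the medians without N0805. The histone median lies at -3.61 and the ribosomal protein median moves from -0.36 to -0.04 without N0805.

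Genes of double-positive thymocytes fell as well, and the study drew several of them (Rag1, Dntt, Ctsl, Cd8a and Cd8b1) from these same libraries, so their direction is not independent evidence. Of 18 tested, 12 fell and 10 of these held, and the median was -2.66 (-2.81 without N0805). Without N0808 6 of the 18 fell, without N0811 7, and with array weights 6. Rag1, of the recombinase that assembles antigen receptor genes, was at 5903 and 6309 at 6 weeks and 782 and 792 at 25 weeks and fell 7.76-fold (log2 fold change -2.95, SE 0.38, adjusted p = 0.00102). Its partner Rag2 fell 17.2-fold (182 and 215 at 6 weeks and 12.7 and 10.3 at 25 weeks, adjusted p = 0.000566). Dntt, the polymerase that adds bases at receptor gene joints, fell 12.1-fold (1708 and 1854 at 6 weeks and 124 and 169.9 at 25 weeks, log2 fold change -3.61, SE 0.39, adjusted p = 0.000351). Libraries of the same age were close in these genes. The genes of the CD8 chains, Cd8a and Cd8b1, were at 1459 and 1057 at 6 weeks and 197 and 205 at 25 weeks and at 1350.1 and 1012 at 6 weeks and 156 and 197 at 25 weeks, falls of 6.26-fold and 6.69-fold (adjusted p = 0.00100 and 0.00907). Ctsl, a lysosomal protease gene, fell (1742 and 1282 at 6 weeks and 157 and 145 at 25 weeks, log2 fold change -3.30, SE 0.25, adjusted p = 2.79e-05), and Themis, which tunes receptor signalling during selection, fell 8.09-fold (981 and 999 at 6 weeks and 108 and 136 at 25 weeks, log2 fold change -3.01, SE 0.25, adjusted p = 4.02e-05). The chemokine receptor gene Ccr9 fell 6.52-fold (587 and 640.3 at 6 weeks and 94.2 and 93.96 at 25 weeks, log2 fold change -2.69, SE 0.44, adjusted p = 0.00609). Ptcra, of the pre-T cell receptor, which marks the stage before, was low (16.1, 12.95, 4.49 and 0, adjusted p = 0.166). The gate given for these libraries required CD1d tetramer and CD122, which double-positive thymocytes mostly lack, and did not include CD8, and the study describes high purity on re-analysis. RNA from double-positive cells and transcripts of these genes within iNKT1 cells cannot be told apart here.

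Among 64 T lineage transcription factors, 7 fell, all 7 held, and 3 rose without holding. The median of the list was 0.38, and over all genes 3.32% fell and 2.3% rose. Myb, which marks immature and dividing thymocytes, fell 8.32-fold (1267 and 949 at 6 weeks and 161 and 106 at 25 weeks, log2 fold change -3.06, SE 0.22, adjusted p = 2.08e-05). Sox4, an HMG box factor of early iNKT cells, fell 6.44-fold (502 and 313 at 6 weeks and 67.3 and 59.2 at 25 weeks, log2 fold change -2.63, SE 0.26, adjusted p = 0.000155). Id3, an inhibitor of E proteins, fell 5.33-fold (75.3 and 165 at 6 weeks and 23.2 and 21.9 at 25 weeks, log2 fold change -2.26, SE 0.33, adjusted p = 0.00270). Ikzf2 (Helios) fell 2.75-fold, and Gfi1 and Tox fell too (log2 fold changes -1.90 and -1.09). Zbtb16, which codes for the iNKT master regulator PLZF, rose 2.20-fold (725 and 470.0 at 6 weeks and 1387 and 1242 at 25 weeks, log2 fold change 1.17, SE 0.24, adjusted p = 0.0211), and without N0805 its adjusted p was 0.0875.

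Of 42 chromatin repressor and DNA methylation genes, 3 fell and none rose, against 3.32% and 2.3% of all genes. Ezh2, the methyltransferase of Polycomb complex PRC2, was at 837 and 583 at 6 weeks and 98.7 and 151 at 25 weeks and fell 5.69-fold (log2 fold change -2.51, SE 0.30, adjusted p = 0.00064). It was the only one of the 3 to hold. The heterochromatin protein genes Cbx1 and Cbx5 fell 1.69-fold and 1.52-fold. Other PRC2 genes were not called: Eed, Suz12 and Ezh1 had log2 fold changes of -0.03, -0.30 and 0.63.

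Few genes that define iNKT1 cells were called. Of 29, 1 rose (Il18r1) and none fell, and the median was -0.13. Il18r1, a chain of the IL18 receptor, rose (2484 and 1586 at 6 weeks and 4262 and 3886 at 25 weeks, log2 fold change 1.04, SE 0.20, adjusted p = 0.0174) and held. Tbx21, Cxcr3 and the NK receptor gene Klrk1 were higher in both aged libraries without being called (adjusted p = 0.572, 0.733 and 0.823). Fgl2, which codes for a fibrinogen-like protein, was at 6433 and 7365 at 6 weeks and 5995 and 5664 at 25 weeks (adjusted p = 0.916). The NK receptor Klra3 and the surface receptor Slamf7 overlapped between the ages.

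Of 20 genes of granzymes and target cell killing, 1 fell and 1 rose, against 3.32% and 2.3% of all genes. Gzma, coding for granzyme A (chr13:113093827-113100951), was at 4106 and 4139.7 at 6 weeks and 297 and 265 at 25 weeks and fell 14.7-fold (log2 fold change -3.87, SE 0.97, adjusted p = 0.0441). Without N0805 its adjusted p was 0.138, although N0802 and N0805 differed by less than 1%. Granzyme A was near 0 in both other subsets, at 5.67 in young iNKT2 and 11.5 in young iNKT17 cells. The SE of each gene draws on the spread within all 6 groups, so these low libraries enter that of Gzma. Gzmb (granzyme B) was at 2842 and 2421 at 6 weeks and 1016 and 1008 at 25 weeks, 2.60-fold lower with groups that did not overlap, and was not called (log2 fold change -1.37, SE 0.81, adjusted p = 0.304). Rab27a, needed for granule release, rose 1.66-fold (639 and 448 at 6 weeks and 844 and 963 at 25 weeks, adjusted p = 0.0463) and did not hold. Perforin (Prf1) was at 793, 398, 957 and 785 (adjusted p = 0.593). Of 28 NK receptor genes, 1 fell, near the share of all genes (3.32%). It was the Fc receptor gene Fcgr3 (21.5 and 35.2 at 6 weeks and 4.49 and 2.57 at 25 weeks, adjusted p = 0.0485), which did not hold.

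In the list of cytokine receptors and signalling, 2 of 35 genes fell and held and 3 rose. Ifngr2, the signalling chain of the interferon gamma receptor, was at 61.3 and 22.2 at 6 weeks and 3.74 and 0 at 25 weeks and fell to a few reads or none (log2 fold change -4.13, SE 0.61, adjusted p = 0.00319), while the ligand-binding chain Ifngr1 was at 4202, 4811, 3722 and 3578 (adjusted p = 0.466). Igfbp4, an inhibitory binding protein of insulin-like growth factors, was at 130.2 and 148 at 6 weeks and 6.73 and 6.44 at 25 weeks and fell 21.1-fold (log2 fold change -4.20, SE 0.31, adjusted p = 2.08e-05). Il7r, the receptor for the survival cytokine IL7, rose 1.94-fold (6305 and 4412 at 6 weeks and 10707 and 10135 at 25 weeks) and did not hold (adjusted p = 0.0650 without N0805). Among 17 cytokine genes, Cd40lg rose 1.63-fold (610.0 and 681 at 6 weeks and 1055 and 1046 at 25 weeks, log2 fold change 0.70, SE 0.16, adjusted p = 0.0338) and held. Tnfsf11 (RANKL) fell from a low level (10.8 and 25.9 at 6 weeks and 3.74 and 1.29 at 25 weeks) and did not hold. The interferon gamma gene Ifng was at 427, 507, 305 and 322 and was not called (adjusted p = 0.589).

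Surface receptors of homing, inhibition and antigen signalling had a few calls each, where 3.32% of all genes fell and 2.3% rose. Of 31 homing genes, 3 fell (Ccr9, Ccr4, Ccr7) and 1 rose (Itgb7). Ccr4 fell 2.83-fold (152 and 74.02 at 6 weeks and 32.2 and 47.6 at 25 weeks, log2 fold change -1.41, SE 0.29, adjusted p = 0.0211) and held. Ccr7 was highest in N0805 (24.7, 99.9, 8.98 and 0) and did not hold. Of 14 inhibitory receptor genes, Pdcd1 (PD-1) fell 6.38-fold (296 and 168 at 6 weeks and 41.9 and 30.9 at 25 weeks, log2 fold change -2.60, SE 0.25, adjusted p = 0.000142) and held, and Cd200 fell without holding. Of 47 antigen receptor signalling genes, 3 fell (Themis and Slamf6, which held, and Sh2d1a, which did not) and 3 rose. Of those that rose, Grap2, an adaptor, did so 2.01-fold and did not hold. Of 15 genes tested in the iNKT2 and iNKT17 identity list, 5 fell, of which 2 held, and 1 rose without holding. Plac8 (43.03 and 64.8 at 6 weeks and 6.73 and 16.7 at 25 weeks) and Izumo1r (423 and 481 at 6 weeks and 214 and 196 at 25 weeks) were among the falls and did not hold.

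Tight junction and polarity genes had few calls, as did all genes (3.32% fell and 2.3% rose). Of 22 tested, 2 rose and 1 fell, and none held. Tjp1, which codes for the junction scaffold ZO-1, was at 128 and 109 at 6 weeks and 1004 and 1058 at 25 weeks, an 8.70-fold rise (log2 fold change 3.11, SE 0.79, adjusted p = 0.0460). Both aged values were over 7 times both young ones, and its adjusted p without N0805 was 0.150. It was low in the other subsets, at 3.21 in aged iNKT2 and 17.3 in aged iNKT17 cells. Those libraries enter the SE of Tjp1, which draws on the spread within all 6 groups. Tjp3 moved the other way (21.5 and 29.6 at 6 weeks and 6.73 and 7.72 at 25 weeks, log2 fold change -1.68, adjusted p = 0.0175), and the polarity kinase gene Prkcz rose 2.16-fold (0.0443 adjusted p). Gas7, a cytoskeletal regulator gene, was at 153 and 79.6 at 6 weeks and 516 and 534 at 25 weeks and was not called (log2 fold change 2.24, SE 0.73, adjusted p = 0.0851).

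The largest rises that held, of which 11 are described, came from varied families. Prg4 (chr1:150449412-150466165), which codes for the lubricating proteoglycan lubricin, was at 9.68 and 0 at 6 weeks and 92.7 and 82.4 at 25 weeks (log2 fold change 4.76, SE 0.77, adjusted p = 0.00594). Zswim5 rose from 1.08 and 7.40 to 50.1 and 52.8 (log2 fold change 3.65, SE 0.80, adjusted p = 0.0283). Cklf, a chemokine-like factor, rose 5.24-fold (25.8 and 12.95 at 6 weeks and 98.7 and 104 at 25 weeks, log2 fold change 2.40, SE 0.44, adjusted p = 0.0121). Some were transcription factors. Epas1 (HIF-2 alpha) rose 4.20-fold (40.9 and 33.3 at 6 weeks and 161 and 151 at 25 weeks, log2 fold change 2.05, SE 0.37, adjusted p = 0.0106), and Thra, a thyroid hormone receptor, 3.04-fold (39.8 and 27.8 at 6 weeks and 92.00 and 113 at 25 weeks, log2 fold change 1.59, SE 0.27, adjusted p = 0.00758). The zinc finger factor Zhx2 rose 3.14-fold (387 and 152 at 6 weeks and 777 and 914 at 25 weeks). In each of these genes both aged values were above both young values.

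Enzymes and trafficking proteins made up the rest. Hs3st3a1, a heparan sulfate sulfotransferase, rose 3.71-fold (50.6 and 83.3 at 6 weeks and 256 and 241 at 25 weeks, log2 fold change 1.92, SE 0.34, adjusted p = 0.0103). St8sia6, a sialyltransferase, rose 3.13-fold (105 and 165 at 6 weeks and 423 and 422 at 25 weeks, log2 fold change 1.67, SE 0.35, adjusted p = 0.0216). Golim4, a Golgi protein, rose 3.53-fold (227 and 120.3 at 6 weeks and 607 and 618 at 25 weeks, log2 fold change 1.88, SE 0.30, adjusted p = 0.00534). App, the amyloid precursor protein, rose 2.82-fold (78.5 and 235 at 6 weeks and 446 and 439 at 25 weeks, log2 fold change 1.69, SE 0.36, adjusted p = 0.0244), although the young libraries lay far apart. Arhgap39, a GTPase-activating protein, rose 3.07-fold. Most of the 30 rises that held were not called again without N0808 or without N0811. Their median log2 fold changes in these fits were 1.81 and 1.72. All 30 stayed positive, but this had to be so, because both aged values lay above both young values in every called rise.

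**Figure D4:**
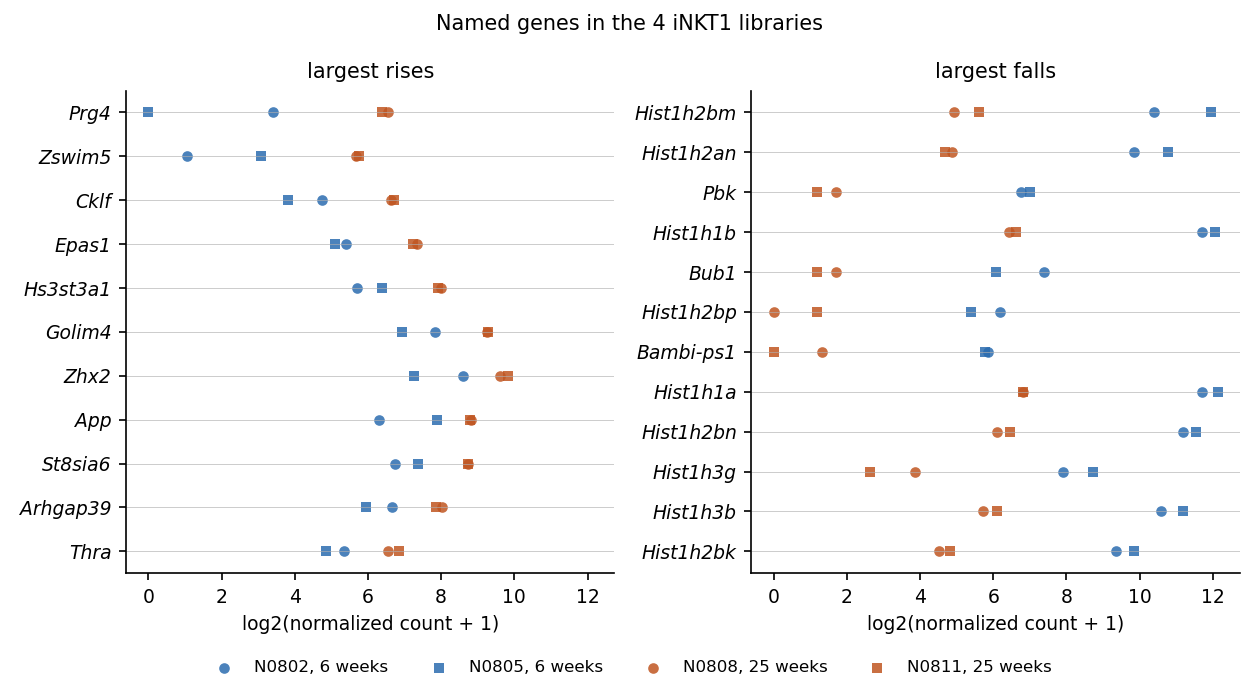
Normalized counts of 11 of the largest rises (left) and the 12 largest falls (right) among calls that held, in the 4 iNKT1 libraries, on a log2(normalized count + 1) axis. Blue symbols are the young libraries and orange symbols the aged ones; the colours do not overlap for any gene, and the falls span wider gaps than the rises.

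Among the remaining lists, interferon response genes leaned upward: the median of 49 genes was 0.57, 45 had a positive log2 fold change, and 4 rose (Oas3, Ddx58, Samhd1 and Iigp1). Over all 10503 genes the median was 0.01, 5179 had a negative log2 fold change, 2.3% rose and 3.32% fell. Oas3, an antiviral RNA sensor, rose 2.35-fold (411 and 324 at 6 weeks and 895 and 833 at 25 weeks, log2 fold change 1.24, SE 0.28, adjusted p = 0.0317). None of the 4 held. Oxidative phosphorylation genes leaned downward, with 7 of 72 falling (Ndufc2, Uqcrfs1, Uqcrb and Atp5g3 with log2 fold changes -1.37, -1.11, -0.94 and -0.93 among them). The median of -0.51 became -0.30 without N0805, and no call held. No ribosomal protein gene of 73 was called. In glycolysis, 2 of 22 genes fell and held, Ldhb, a lactate dehydrogenase subunit (253 and 468 at 6 weeks and 64.3 and 52.8 at 25 weeks, log2 fold change -2.54, SE 0.38, adjusted p = 0.00319), and the monocarboxylate transporter gene Slc16a1 (635 and 738 at 6 weeks and 303 and 287 at 25 weeks, log2 fold change -1.21, SE 0.19, adjusted p = 0.00534). Of 22 BCL2 family and caspase genes 3 fell without holding. Bmf, a BH3-only death gene (40.9 and 46.3 at 6 weeks and 2.24 and 2.57 at 25 weeks), and the survival gene Bcl2l1 were among them. Of 41 immediate early and stress genes only Nfkbia was called (adjusted p = 0.0270). No gene of cholesterol synthesis was called among 24.

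Whether the age change of iNKT1 cells differed from that of the other subsets was tested as 1 contrast: the iNKT1 change minus the mean of the iNKT2 and iNKT17 changes. It was lower in iNKT1 cells for 89 genes (0.847%) and higher for 10 (0.0952%). Without N0805, N0806 and N0807, the libraries with keratin reads, there were 146 lower and 43 higher. Without N0802 there were 420 and 928, without N0808 30 and 0, without N0811 19 and 0, and without any other single library but N0805 22 to 75 and 3 to 8. Without N0805 alone there were 110 and 42. Of the 55 histone genes 17 were among the 89, and of the 18 double-positive genes 8. The aged CD122- CD4+ libraries, the mixed pool, enter this contrast. Against the iNKT17 change alone, an alternative chosen after seeing the data, 9 genes were lower and 8 higher, of which 9 and 5 were also among the 89 and the 10. The 9 included 1 histone gene and no double-positive or mitotic gene. For Hist1h2bm the mean went from 2656 to 38.4 in iNKT1 cells, from 313 to 141 in iNKT2 cells and from 175 to 27.3 in iNKT17 cells (difference -3.96, SE 0.65, adjusted p = 0.0187, and -3.18, adjusted p = 0.173 against iNKT17 alone). Histone levels at 25 weeks were close in all subsets, and the young iNKT1 libraries stood highest: the summed histone level was 87856 and 120069 in young iNKT1, 26506 to 44258 in young iNKT2, 23251 to 27411 in young iNKT17, and 11980 to 16347 in the 6 aged libraries. The summed mitotic list was likewise highest in young iNKT1 (30843 and 21920). In the study's BrdU labelling, by contrast, iNKT1 cells of the young thymus divided least of the subsets. The authors concluded that histone RNA did not mirror how much each subset divides, while division was lower in aged thymic iNKT cells.

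The double-positive genes had other values in the other subsets. In the iNKT2 libraries the means of the iNKT17 markers Il23r and Blk were 74.3 and 75.3 at 6 weeks and 544 and 515 at 25 weeks, and the part of this admixture in the differences was not tested. Rag1 fell in iNKT1 cells while its mean went from 985 to 3397 in iNKT2 cells and from 733 to 120.2 in iNKT17 cells (difference -2.50, SE 0.46, adjusted p = 0.0300). Against iNKT17 alone its difference was -0.24, adjusted p = 0.905. Ctsl went from 235 to 717 in iNKT2 cells and from 194 to 64.3 in iNKT17 cells (difference -3.30, SE 0.31, adjusted p = 0.000638, and -1.69, adjusted p = 0.129 against iNKT17 alone), and Themis from 497 to 1036 in iNKT2 cells and from 135 to 26.2 in iNKT17 cells (difference -2.38, SE 0.30, adjusted p = 0.00497, and -0.69, adjusted p = 0.666 against iNKT17 alone). Summed over the 18 genes, the level went from 24649 and 21968 to 9412 and 9381 in iNKT1 cells. The sum went from 12068 and 13194 to 22869 and 23837 in iNKT2 cells and from 8804 and 10813 to 6697 and 7240 in iNKT17 cells. Part of each difference therefore lies in the iNKT2 libraries. Myb, which is high in the other subsets at both ages, went from 1676 to 1494 in iNKT2 cells and from 2079.7 to 957 in iNKT17 cells (difference -2.41, SE 0.28, adjusted p = 0.00277), and it was also called against iNKT17 alone (-1.93, adjusted p = 0.0421).

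Several of the largest differences belonged to genes outside these lists. Kcnmb4, a potassium channel subunit gene, was at 36.6 and 75.9 at 6 weeks and 1.50 and 1.29 at 25 weeks in iNKT1 cells and went from 133 to 143 in iNKT2 cells and from 143 to 141 in iNKT17 cells (difference -4.55, SE 0.50, adjusted p = 0.00202), and was also called against iNKT17 alone (-4.50, adjusted p = 0.0135). Ifngr2 went from 254 to 321 in iNKT2 cells and from 262 to 363 in iNKT17 cells (difference -4.53, SE 0.75, adjusted p = 0.0189, and -4.59, adjusted p = 0.0765 against iNKT17 alone). Tmem151b, Rapgef3, Dnajc6 and Cfap74 had differences, none called against iNKT17 alone, of -5.03, -4.30, -4.22 and -4.15. The 10 genes on the other side were Nav1, S1pr1, Trf, Rab27b, St8sia6, Ttc39c, Sidt1, Chn2, Inpp4b and Atp8b4. Their log2 fold changes in iNKT1 cells themselves ran from 0.02 for Ttc39c to 5.57 for Nav1, whose size depends on the 1 added before the logarithm, and 4 were called there (Nav1, St8sia6, Sidt1 and Atp8b4). S1pr1, the receptor that lets T cells leave the thymus, was higher at 25 weeks in iNKT1 cells without being called, at 102 and 113 at 6 weeks and 233 and 242 at 25 weeks (log2 fold change 1.14, adjusted p = 0.106, difference 3.36, SE 0.49, adjusted p = 0.0119). St8sia6 was the only one of the 10 whose rise in iNKT1 cells held, and it was also called against iNKT17 alone (3.22, adjusted p = 0.0312).

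**Figure D5:**
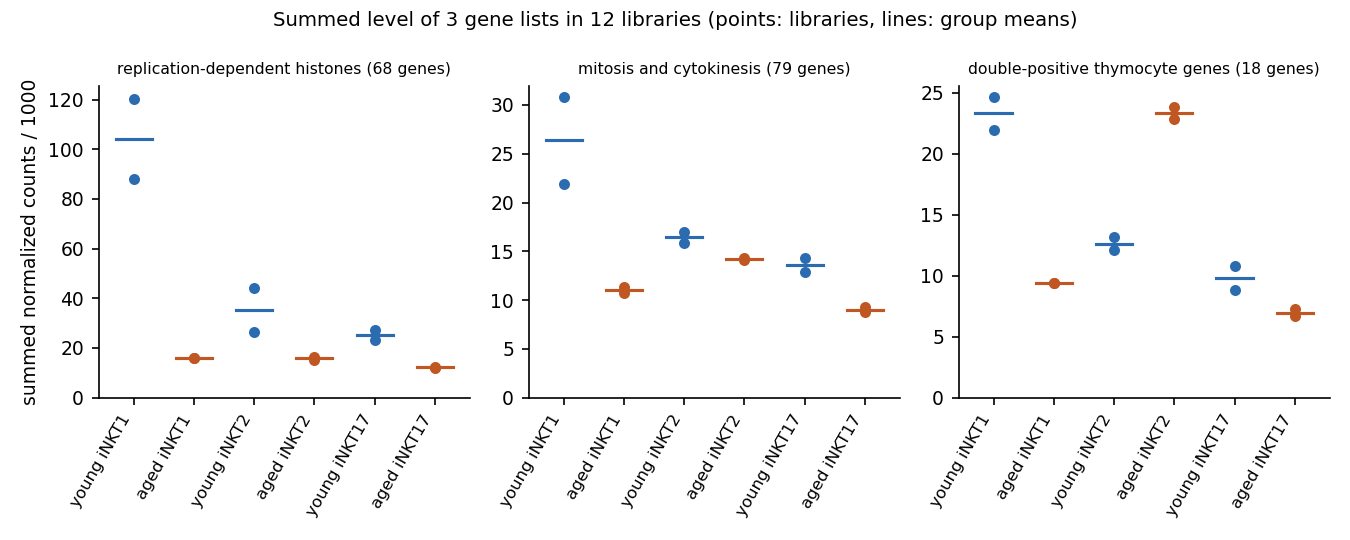
Summed normalized counts (y axis, scaled as its label says) of the replication-dependent histone, mitosis and double-positive thymocyte lists in the 12 libraries of 3 iNKT subsets, with points for libraries and lines for the means of 2 libraries. Young iNKT1 libraries stand highest in the first 2 panels, and the double-positive level falls with age in iNKT1 cells but is higher at 25 weeks in iNKT2 cells.

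Markers of other cells were checked beside these changes. Of 19 thymic epithelial genes 4 reached the expression limit, 6 were at 0 in all 4 libraries, and only Epcam was called (12.9, 72.2, 2.24 and 1.29, adjusted p = 0.0374, 0.189 without N0805). Foxn1, Aire and Psmb11, which define thymic epithelium, were at 0 in every iNKT1 library. The summed level of this list was 2794 and 1975 in the young libraries and 4218 and 4064 in the aged ones, most of it from Cdh1 (2021, 568, 3389 and 3231), an adhesion gene, and from Ly75, a lectin receptor gene. Of 22 myeloid and dendritic genes 8 reached the limit and 2 fell and held, H2-Ab1 (44.1, 29.6, 2.99 and 0) and Cd74 (72.1, 16.7, 2.99 and 0), both of MHC class II antigen presentation. The median of the 8 was -3.08. The other 6 were not called, Lyz2 among them (19.4, 24.1, 1.50 and 1.29), and the summed level of the list was 1360 and 1851 at 6 weeks and 1210 and 1149 at 25 weeks. No B cell and no erythroid gene reached the limit, and Hbb-bs was at 0. Vcam1, of endothelial and stromal cells, fell from 11.8 and 22.2 to 0 and did not hold. Of 2 regulatory T cell genes tested, Ikzf2 fell and Il2ra did not pass the test, and Foxp3 was at no more than 2.15. The NK genes Ncr1 and Eomes were not called (adjusted p = 0.437 and 0.599), and among 8 pan T cell genes Thy1 rose without holding (log2 fold change 1.13) while Cd3e overlapped between ages. The part that other cells had in the histone, mitotic and double-positive falls was not tested.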

How the data were processed

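Sorted thymic iNKT1, iNKT2 and iNKT17 cells were profiled by total RNA sequencing. As the authors describe, RNA was isolated with a spin column kit, libraries were made with a stranded random-primed low-input kit, and reads were trimmed (Trim Galore 0.4.1, cutadapt 1.9.1), mapped to mm10 with STAR (2.5.0c), counted per gene by strand with featureCounts and divided by DESeq2 size factors. The deposited values are these normalized counts (signal, not raw counts). A further 9 columns with the authors' own p-values were not used. All values (100%, tolerance 0.01 reads) came out as whole reads after division by the value of 1 read, and these recovered reads served only the edgeR and DESeq2 alternatives.

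The members and gene lists were chosen with earlier results of these data known. Genes with 10 or more normalized counts in at least 2 of 12 libraries (11530 genes) were fitted with limma 3.58.1 (R 4.3.3; variance trend, 6 groups, 6 residual degrees of freedom) on log2(normalized count + 1), without the DNase-treated repeat, with Benjamini-Hochberg adjustment of the p-values over all 11530 genes. Fold changes on this scale understate the change of low genes, and fold values in the text are ratios of group means. Depth was 3590903 to 9067693 reads in the iNKT1 libraries. Libraries are pools of animals. The p-values rest on a shared spread for each gene, taken within all 6 groups, so iNKT2 and iNKT17 libraries enter it. They do not measure the spread of the iNKT1 libraries alone, and the spread may in part be technical. Named genes were the 12 largest rises and 12 largest falls that held with a higher group mean of at least 50, up to 4 called members per list, the 6 largest differences between subsets, the cell markers and genes the study names for iNKT1 cells, which it chose on these samples. Predicted genes were not named, and a few genes that the rule picks are not reported here. Others were named after their values were seen. The age comparison by limma, edgeR and DESeq2 was run on simulated counts, in which no library carried other cells' transcripts. The difference between subsets was not checked in this way. Alternatives were other pseudocounts (0.5 and 5), no filter and a filter at 50, TMM factors, no variance trend, array weights, edgeR 4.0.16, DESeq2 1.42.0, the 4 iNKT1 libraries alone, the filter and adjustment over the iNKT1 libraries, leaving out each library, and, chosen after seeing the data, leaving out N0805, N0806 and N0807 together and setting iNKT1 cells against iNKT17 cells alone.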

Additional observations from a re-analysis of the deposited data

Results flagged for a closer look

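For 27 of the named genes the age change of iNKT1 cells differed from the mean age change of iNKT2 and iNKT17 cells at an adjusted p below 0.05 (limma, Benjamini-Hochberg adjustment). The values here are that difference on the log2(normalized count + 1) scale. A negative value means that the gene fell more, or rose less, in iNKT1 cells. Of the 27, 3 were also called against the iNKT17 change alone (Kcnmb4, Myb and St8sia6). The aged CD122- CD4+ libraries, which the study describes as a mixed pool, enter the difference for all 27.

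Among histone genes the difference was -3.96 for Hist1h2bm, -3.01 for Hist1h2an, -2.77 for Hist1h1b, -3.01 for Hist1h1a, -2.78 for Hist1h3b, -3.11 for Hist1h2bk and -1.75 for H2afx. Among genes of division it was -4.48 for Pbk, -3.35 for Nusap1 and -4.67 for Mycn, which had no read in either aged iNKT1 library, so that its size depends on the 1 added before the logarithm.

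Among double-positive thymocyte genes it was -2.50 for Rag1, -3.21 for Dntt, -3.30 for Ctsl, -2.38 for Themis, -2.43 for Cd8a and -2.98 for Cd8b1. Their summed list was at 12068 and 13194 in young and 22869 and 23837 in aged iNKT2 libraries, values that enter this contrast and were not tested on their own. The transcription factor gene Myb had a difference of -2.41.

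The other genes with a negative difference were Ifngr2 (-4.53), Tjp3 (-2.47), Pdcd1 (-1.78), Ldhb (-3.20), Tmem151b (-5.03), Kcnmb4 (-4.55), Rapgef3 (-4.30), Dnajc6 (-4.22) and Cfap74 (-4.15). St8sia6 was the gene with a positive one (2.20).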

How the results depend on the processing

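The 242 rises became 95 with no filter, 44 with no variance trend, 19 with array weights and 621 with DESeq2, and the 349 falls became 231 with no variance trend, 109 with array weights and 579 with DESeq2. The 30 rises that held became 16, 18 and 95 with no variance trend, array weights and DESeq2, and the 190 falls that held became 109 and 290 with array weights and DESeq2. In the 4 iNKT1 libraries alone limma called 0 rises and 0 falls, so 0 held (lowest adjusted p 0.0855). At an unadjusted p below 0.05 in limma, which some genes reach by chance, 701 genes rose and 726 fell. edgeR called 179 rises and 288 falls. The 10 higher differences between subsets became 17 with a pseudocount of 5, 5 with no filter, 2 with array weights, 18 with edgeR, 58 with DESeq2 and 43 without N0805, N0806 and N0807. The 89 lower ones became 53 with no filter, 28 with array weights, 203 with DESeq2, 146 without those 3 libraries and 9 against iNKT17 alone, where 8 were higher. Leaving out each library in turn gave 2 to 2117 rises, 116 to 1375 falls, 0 to 928 higher differences and 19 to 420 lower differences. The fewest higher differences came without N0808 and without N0811, and the most higher and lower differences came without N0802. The cause of these changes was not tested.

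Of 108 named genes that were called, 0 changed sign under any alternative. Where an alternative kept the deposited values this had to be so, because the age groups did not overlap in any called gene. Of the 108, 32 were lost in at most 1 alternative. No paired analysis was possible because the labels give no replicate number shared between groups, and the sorts that the study describes are tied to no library by a label. With 2 libraries a group and a young library that carries other cells' transcripts, small changes cannot be resolved. Genes at a few reads are limited by counting, and 1 read was worth up to 1.85 normalized counts.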
